A study of Rattus norvegicus with 4 samples.

Results

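Interferon-induced genes are described here on 4 one-colour arrays of rat skeletal muscle. Of 34 genes listed by name, 33 had a probe whose RefSeq accession matched their symbol, and Xaf1 was not measured here. The array gave values for 26624 genes or unnamed accessions in all. The groups were 1 array of an exercised SPORTS rat, 1 array of a sedentary SPORTS rat and 2 arrays of wild-type (WT) rats, which the series design calls sedentary. SPORTS is a hyperactive mutant on the Wistar background, and the WT rats were Wistar too. All were males aged 15 weeks. Which muscle was taken and how the rat was exercised are not given in the labels. Nor do they tie the WT arrays to separate animals, so each p-value below covers the spread of these arrays alone, part of which may be technical.

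Interferons are secreted proteins that warn tissues of infection. Type I interferons bind a receptor whose kinases activate a complex that holds STAT2 and IRF9 and binds the interferon-stimulated response element (ISRE) in the promoters of target genes. Interferon gamma acts at another element, the gamma activated sequence (GAS). The target genes encode transcription factors that widen the response, sensors of foreign RNA, proteins that block viruses, and inhibitors that end the response. Many of these transcripts are present at a low level in tissues without infection.

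Levels are given as log2 of the scanner's processed signal minus the 75th percentile of that array, so 0 is the level of a probe at that percentile. Probes bind with different strength, so levels are compared between arrays and never between genes. A member counted as raised where the SPORTS array lay at least 2-fold, or 1 on the log2 scale, above both WT arrays. Genes well above background on at least 2 arrays by the scanner's flag were tested, which 26 members and 13326 genes in all were. Of the 26 members tested, 25 were well above background on all 4 arrays. The exception was Irgm, which passed only through the SPORTS arrays, where it was high. Its tests and its place in the counts below are therefore no support for a difference. The WT arrays were close for the tested members, with a median absolute difference of 0.10 and at most 0.33 on the log2 scale.

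Expression as a whole differed most on the array of the exercised SPORTS rat. There 27.3% of all genes tested were called higher than WT and 26% lower, against 2.82% higher and 3.45% lower on the sedentary SPORTS array (limma, adjusted p under 0.05). Skeletal muscle markers had a probe for 17 of 18 genes and all 17 were well above background on all 4 arrays. The fast myosin gene Myh4 had a log2 level of 8.63 in exercised and -2.56 in sedentary SPORTS muscle, against 1.03 and 1.41 on the WT arrays. The slow fibre genes Myh7 and Tnni1 differed from WT by -2.22 and -3.43 on the exercised array, and by -0.07 and -0.03 on the sedentary one. For the fast fibre genes Myh2 and Tnni2 it was -0.43 and 0.51 on the exercised, and -3.64 and -3.31 on the sedentary array. Ckm differed by 0.48 and -0.27. The median of the 17 was 0.41 on the exercised and -0.52 on the sedentary array, so the samples differed widely in fibre markers. In whole muscle, fewer cells of a type and less RNA per cell cannot be told apart.

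The promoters of the members raised on both SPORTS arrays are shown because these genes moved together and are known targets of ISRE-binding factors. They come from RefSeq (build GRCr8) and run from 250 bases before to 50 bases after the gene start, read along the gene. Capitals mark the ISRE core, a motif of fixed letters with 2 free bases in the middle, searched on both strands. The regions are chr1:205799974-205800273, minus strand for Irf7, chr10:33742529-33742828, minus strand for Irgm, chr6:48788071-48788370, minus strand for Rsad2 and chr16:18254918-18255217, minus strand for Bst2.
Irf7: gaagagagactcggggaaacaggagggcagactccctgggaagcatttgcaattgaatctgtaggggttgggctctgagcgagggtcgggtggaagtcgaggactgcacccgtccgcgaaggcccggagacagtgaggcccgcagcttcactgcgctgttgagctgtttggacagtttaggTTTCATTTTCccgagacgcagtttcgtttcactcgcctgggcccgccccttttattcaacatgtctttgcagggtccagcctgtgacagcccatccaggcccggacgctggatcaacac
Irgm: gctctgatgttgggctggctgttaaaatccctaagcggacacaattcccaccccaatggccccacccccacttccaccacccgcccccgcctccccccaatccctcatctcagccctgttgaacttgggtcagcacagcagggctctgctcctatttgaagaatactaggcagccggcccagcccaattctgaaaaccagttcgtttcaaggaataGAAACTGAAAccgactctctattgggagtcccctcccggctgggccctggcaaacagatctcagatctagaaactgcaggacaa
Rsad2: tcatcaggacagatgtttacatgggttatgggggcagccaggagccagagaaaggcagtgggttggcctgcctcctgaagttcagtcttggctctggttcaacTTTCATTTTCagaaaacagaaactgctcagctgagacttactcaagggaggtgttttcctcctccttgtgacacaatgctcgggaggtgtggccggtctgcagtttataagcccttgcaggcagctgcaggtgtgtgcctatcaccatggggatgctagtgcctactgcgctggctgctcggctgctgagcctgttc
Bst2: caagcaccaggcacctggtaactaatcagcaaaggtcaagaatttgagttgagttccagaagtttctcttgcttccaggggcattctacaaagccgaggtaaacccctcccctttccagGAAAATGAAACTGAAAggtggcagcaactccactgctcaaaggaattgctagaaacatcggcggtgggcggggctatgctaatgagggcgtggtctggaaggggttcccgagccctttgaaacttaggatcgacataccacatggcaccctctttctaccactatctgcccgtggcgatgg

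The ISRE core began 69 bases before the gene start in Irf7, 34 in Irgm and 147 in Rsad2. In Bst2 a pair of overlapping matches began 131 and 125 bases before the start. Mx1, raised on both SPORTS arrays too, had no match in this window, and Isg15 had no entry in the promoter table. Of 25 members with an entry, 17 held the ISRE core, or 68%, against 3.92% of all 33469 promoters. The members were listed for their response to interferon, so this share describes the list. It was 4 of 5 among members raised on both SPORTS arrays and 11 of 18 among members under 2-fold on both. The GAS pattern, searched as TTCNNNGAA, which reads alike on either strand, was in 7 of the 25 members and in 8.87% of all promoters. It lay 45 bases before the start in Irgm, and in Bst2 137 bases before the start, overlapping the ISRE match.

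The same core stood in promoters of some members that were raised or called higher on the sedentary SPORTS array but not on the exercised one. Windows of 30 bases are shown for Cxcl10 (chr14:15988816-15988845, plus strand), Gbp2 (chr2:234005686-234005715, plus strand) and Parp14 (chr11:78408048-78408077, plus strand), again with the ISRE core in capitals.
Cxcl10: cgctttgGAAAGTGAAActtaactcactca
Gbp2: agttttttagTTTCACTTTCattgtcttaa
Parp14: tccaggaaatGAAAGTGAAAgaagtaagtt

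**Figure D1:**
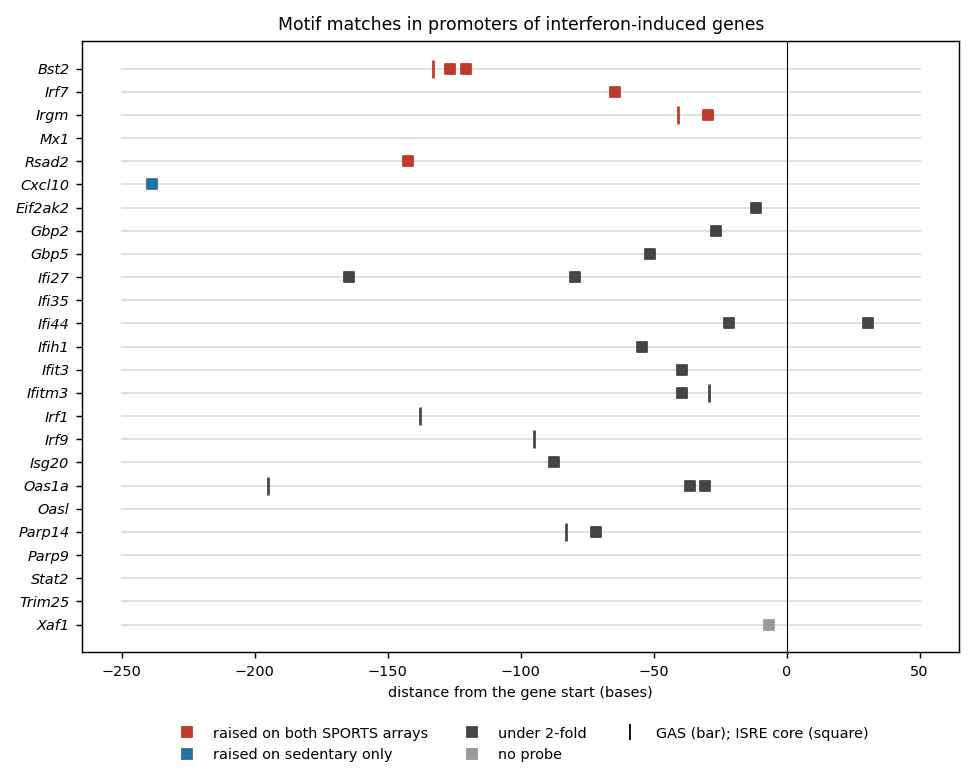
Matches to the ISRE core (squares) and GAS (bars) in the 25 promoters with an entry, by distance from the gene start in bases. Colour gives the member's class by array; 4 of the 5 promoters of members raised on both SPORTS arrays and 11 of the 18 of members under 2-fold hold a square.

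Both SPORTS arrays were set against both WT arrays to ask which members differed with genotype whatever the exercise state. Of the 26 members tested, 6 were at least 2-fold above both WT arrays on both SPORTS arrays, against 0.645% of all genes tested. They were the transcription factor gene Irf7, the ubiquitin-like modifier gene Isg15, the GTPase genes Mx1 and Irgm, and the membrane-associated antiviral genes Bst2 and Rsad2. No member was 2-fold below both WT arrays on both, against 1.28% of all genes. In the test of 2 arrays against 2, limma called 0 members, as it called 0 of all genes, or 0% in either direction. At an unadjusted p under 0.05, 7 members were higher, against 3.39% of all genes: the 6 above and Oas1a.

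Irf7 encodes the factor that drives further interferon production. Its log2 level was 2.002 in exercised and 2.70 in sedentary SPORTS muscle, against -0.13 and -0.11 on the WT arrays. The SPORTS arrays lay far above a WT pair that was nearly equal. The difference between genotypes was 2.48 ± 0.30 on the log2 scale (standard error, adjusted p = 0.322, limma). Among the other transcription factor genes, Irf1 and Irf9 and Stat2, which with Irf9 forms the factor that binds the ISRE, were under 2-fold on both SPORTS arrays. Irf1 differed from WT by 0.41 on the exercised and 0.11 on the sedentary array. A further Irf1 probe, well above background on the sedentary array alone, went the other way, by -0.21 and -0.08. Stat2 differed by -0.24 and 0.25 in the same order, and Irf9 by -0.08 and 0.30.

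Isg15 encodes a small protein that is attached to other proteins, much as ubiquitin is. Levels on the log2 scale were 0.36 in exercised and 1.03 in sedentary SPORTS muscle, against -1.52 and -1.37 on the WT arrays. Isg15 differed between genotypes by 2.14 ± 0.29 (adjusted p = 0.366, limma). Trim25, a ubiquitin ligase gene of the RNA sensing pathway, differed by -0.01 on the exercised and 0.18 on the sedentary array.

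Mx1 encodes a GTPase that traps viral nucleocapsids. It measured 0.28 in log2 level in exercised and 1.16 in sedentary SPORTS muscle, against -1.52 and -1.19 on the WT arrays. Between genotypes Mx1 differed by 2.07 ± 0.38 (adjusted p = 0.475, limma). Mx2, its relative on the list, differed from WT by only -0.13 on the exercised and 0.20 on the sedentary array.

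Irgm, an immunity-related GTPase gene that acts on membranes of vacuoles and in autophagy, was the tested member that differed most on the exercised array. The log2 level was -1.47 in exercised and -2.001 in sedentary SPORTS muscle, against -4.69 and -4.51 on the WT arrays, where it was not well above background. Only a bound can be given for the fold: the SPORTS pair was brighter by at least 3.70-fold, taking for each WT array its lowest signal well above background. The test used the measured WT values and not this bound (adjusted p = 0.300, limma). Among the 6 raised members, only Irgm was higher on the exercised array than on the sedentary one.

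Bst2 encodes tetherin, which holds budding virus at the cell surface. Its log2 level was 2.88 in exercised and 3.48 in sedentary SPORTS muscle, against 1.75 and 1.69 on the WT arrays. The difference was 1.46 ± 0.26 (adjusted p = 0.470, limma). Rsad2 encodes viperin, which makes a chain-terminating nucleotide. Its log2 level was -0.87 in exercised and -0.66 in sedentary SPORTS muscle, against -2.48 and -2.20 on the WT arrays. Of the raised members Rsad2 had the closest values on the SPORTS arrays, and it differed from WT by 1.57 ± 0.19 (adjusted p = 0.322, limma). The lower SPORTS value of Bst2 lay 1.13 above the higher WT value, the closest to the 2-fold line of the 6. Oas1a, an oligoadenylate synthetase gene, lay just outside it, at 0.80 above on the exercised and 0.96 above on the sedentary array.

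**Figure D2:**
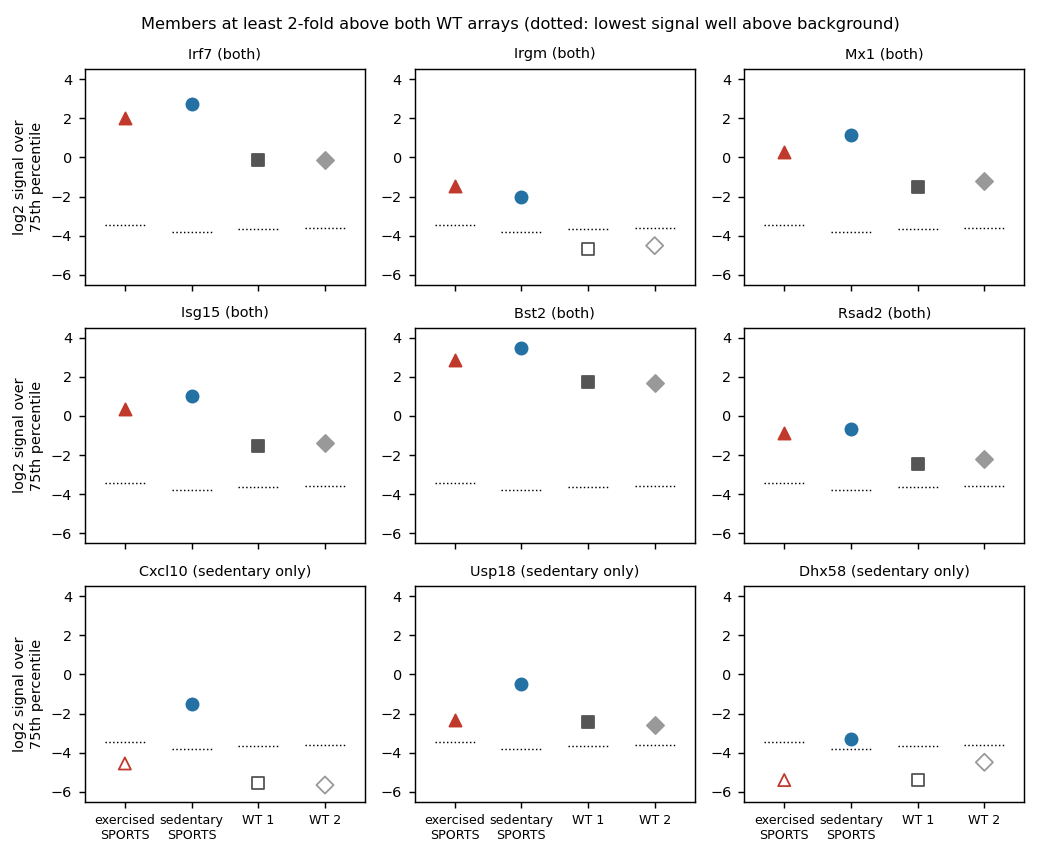
Log2 signal over each array's 75th percentile for the 9 members at least 2-fold above both WT arrays on a SPORTS array, 1 point per array, open where not well above background; dotted lines give the lowest signal well above background on that array. The top 6 panels lie above WT on both SPORTS arrays, and Cxcl10, Usp18 and Dhx58 on the sedentary array.

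With the exercised array left out, limma called 10 members higher, beside 2.82% of all genes higher. With the sedentary array left out it called 9 higher and 5 lower, beside 27.3% of all genes higher and 26% lower. These fits are the same as those of each SPORTS array alone, given below. The 2-fold count of 6 became 5 with normexp background correction, without Rsad2, and 5 with quantile normalization, without Bst2. It was 5 when each gene had to be well above background on every array, which removes Irgm.

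The sedentary SPORTS array was set against the WT arrays to compare the genotypes without exercise. Of 26 tested, 10 rose, or 38.5%, and none fell, against the 2.82% and 3.45% of all genes given above (limma, 3-group fit). The 10 were Irf7, Isg15, Mx1, Irgm, Rsad2, Bst2, Usp18, Gbp2, Rtp4 and Parp14. By measured size 7 exceeded both WT arrays by 2-fold or more, or 26.9%, against 1.88% of all genes, and none lay 2-fold below, against 2.17%. The median difference over the tested members was 0.66 and that over all genes tested was -0.01. In this fit the spread comes from the WT pair alone, so the lone SPORTS array is assumed to vary like that pair, and the calls compare these arrays rather than groups of rats. With no filter on dim probes no member was called.

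Of the members raised on both SPORTS arrays, Irf7 was 7.10-fold higher on the sedentary array (2.83 ± 0.06 on the log2 scale, adjusted p = 0.0319, limma). Mx1 was 5.71-fold higher (adjusted p = 0.0391, limma) and Isg15 5.58-fold higher (adjusted p = 0.0322, limma). For Irgm the bound was 3.08-fold higher or more. Bst2 rose 3.39-fold (adjusted p = 0.0322, limma) and Rsad2 3.21-fold (adjusted p = 0.0464, limma). With the mean over all probes of a gene, the calls of Rsad2 and Gbp2 were lost. Each has 1 probe, so its own values were unchanged in that setting, and only the test over the other genes differed.

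Usp18, Cxcl10 and Dhx58 were raised by measured values on the sedentary SPORTS array only. Of these Usp18 alone was tested, so 1 of the 26 tested members showed this pattern, against 1.24% of all genes tested. Usp18 encodes the protease that removes ISG15 from proteins and dampens signalling at the type I receptor. Usp18 had a log2 level of -2.31 in exercised and -0.50 in sedentary SPORTS muscle, against -2.44 and -2.58 on the WT arrays. The exercised value lay beside WT and the sedentary value stood alone, 4.04-fold above WT (2.01 ± 0.10, adjusted p = 0.0342, limma). A further Usp18 probe gave the same picture, with differences from WT of 0.09 on the exercised and 1.81 on the sedentary array.

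Cxcl10 encodes a chemokine that draws in T cells and natural killer cells. Cxcl10 had a log2 level of -4.55 in exercised and -1.52 in sedentary SPORTS muscle, against -5.53 and -5.65 on the WT arrays. It was well above background on the sedentary SPORTS array alone, where it was at least 4.29-fold above WT, and was not among the genes tested. Its exercised value, not well above background, lay 0.985 above the higher WT value, just short of the 2-fold line. Dhx58 encodes the RNA sensor relative LGP2, and its log2 level was -5.40 in exercised and -3.32 in sedentary SPORTS muscle, against -5.40 and -4.49 on the WT arrays. It too was well above background on the sedentary array alone. Its WT values differed by 0.91 and its bound against WT was only 1.23-fold, so its values lie near background.

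Gbp2, Parp14 and Rtp4 moved by less than 2-fold but were called on the sedentary array. Gbp2, a guanylate-binding protein gene, rose 1.60-fold (adjusted p = 0.0464, limma), with a log2 level of -0.0107 in exercised and 0.9997 in sedentary SPORTS muscle, against 0.32 and 0.33 on the WT arrays. Parp14, an ADP-ribosyltransferase gene, rose 1.69-fold (adjusted p = 0.0459, limma), and Rtp4, an interferon-induced receptor transporter gene, rose 1.99-fold (adjusted p = 0.0429, limma). Both had values close to WT on the exercised array, at -0.02 for Parp14 and 0.23 for Rtp4. A further probe of Parp14 and of Gbp5 was not well above background on any array. The further Irf1 probe was well above background on the sedentary array only.

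The other tested members were not called on the sedentary array. Oas1a differed from WT by 1.09 ± 0.15 (adjusted p = 0.0578, limma) and the interferon-induced gene Ifi44 by 1.01 ± 0.16 (adjusted p = 0.0643, limma). The exonuclease gene Isg20 differed by 0.84, Ifitm3, which blocks virus entry, by 0.64, Gbp5 by 0.61 and Ifi35 by 0.47. Differences were smaller for Ifi27 at 0.30, for the translation-blocking kinase gene Eif2ak2 at 0.19 and for the viral RNA-binding genes Ifit2 and Ifit3 at 0.09 and 0.10. Ifitm1 was the only tested member below WT, at -0.09, so 25 of the 26 lay above both WT arrays by some amount, against 42.1% of all genes. Among members not tested, Parp9 was well above background on the sedentary array alone. It measured 1.59-fold above WT there, where the WT values were not well above background. Ifit1, Oas2, Oasl and the RNA sensor gene Ifih1 were not well above background on any array.

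**Figure D3:**
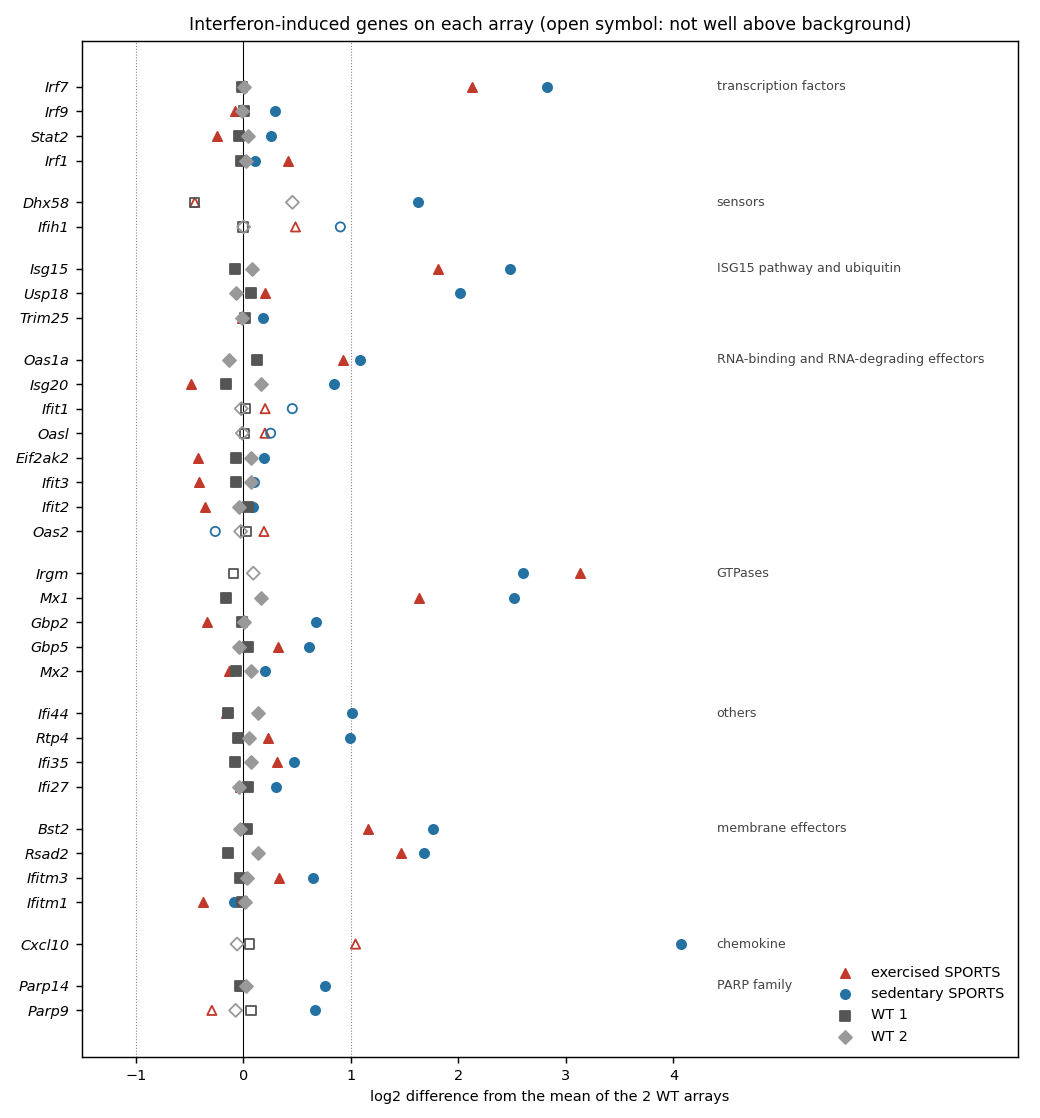
Log2 difference of each array from the mean of the 2 WT arrays for the 33 members with a probe, grouped by role; open symbols were not well above background and dotted lines mark 2-fold. Irf7, Isg15, Mx1, Irgm, Bst2 and Rsad2 have both SPORTS symbols beyond the 2-fold line, as has Cxcl10, whose exercised symbol is open. Usp18, Dhx58, Oas1a and Ifi44 have only the sedentary one beyond it. The line is measured from the WT mean, while members counted as raised lay 2-fold above both WT arrays.

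Against WT, the exercised SPORTS array split the members. The same 6 genes that are defined above as raised on both arrays exceeded WT by 2-fold or more here, 23.1% of those tested against 7.88% of all genes, and none lay 2-fold below, against 10.7%. By the test 9 members rose, or 34.6% of those tested, and 5 fell, or 19.2% (limma, 3-group fit). Those shares stand beside 27.3% and 26% of all genes on this array, so the counts called are near the background. The median over the members was 0.10, and over all genes 0.00. Of the 26, 13 lay above both WT arrays by any amount on this array, against 46.5% of all genes, and 13 did so on both SPORTS arrays, against 21.4%.

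On the exercised array Irgm was higher by at least 4.46-fold. Irf7 was 4.37-fold higher (2.13 ± 0.06, adjusted p = 0.00426, limma), Isg15 was 3.50-fold higher and Mx1 was 3.10-fold higher. Rsad2 rose 2.76-fold and Bst2 2.23-fold, and adjusted p ranged from 0.00558 to 0.0135 for these 4 (limma). The calls of Irf7, Isg15, Mx1, Rsad2 and Bst2 on this array held under each alternative that gave a test. That of Irgm is left aside, as it passed the filter only through the SPORTS arrays. Oas1a rose 1.90-fold, Irf1 1.33-fold and Ifitm3 1.26-fold (adjusted p = 0.0253, 0.0257 and 0.0420, limma).

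The 5 members that fell on the exercised array were Ifit2, Ifit3, Gbp2, Eif2ak2 and Ifitm1, by 0.34 to 0.42 on the log2 scale. These falls depended on how the arrays were scaled. Scaling by the median of each array in place of the 75th percentile moved the median difference of all genes on the exercised array to 0.23 from 0.00. With that scaling no member was called lower. Fewer members were called lower with quantile normalization and with normexp too. How many of all genes were called under these settings is not given here.

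Setting the exercised SPORTS array against the sedentary one asks what goes with exercise in the mutant. With 1 array on each side there are no replicates, and no test was made. Of the 26 tested members, 24 were lower on the exercised array by some amount, against 47.7% of all genes, and the exceptions were Irgm and Irf1. At least 2-fold lower were Usp18, Isg20, Ifi44 and Gbp2, or 15.4%, against 12.8% of all genes, a share near the background. None was at least 2-fold higher, against 9.11% of all genes. The median of the members was -0.47, and that of all genes was 0.03.

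Usp18 was 3.51-fold lower on the exercised array, Isg20 2.51-fold, Ifi44 2.25-fold and Gbp2 2.01-fold. Cxcl10, untested, was at least 3.77-fold lower on the exercised array. The members raised on both arrays differed less between them, from 1.16-fold for Rsad2 to 1.84-fold for Mx1, each higher on the sedentary array, while Irgm differed by 0.53 on the log2 scale the other way.

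**Figure D4:**
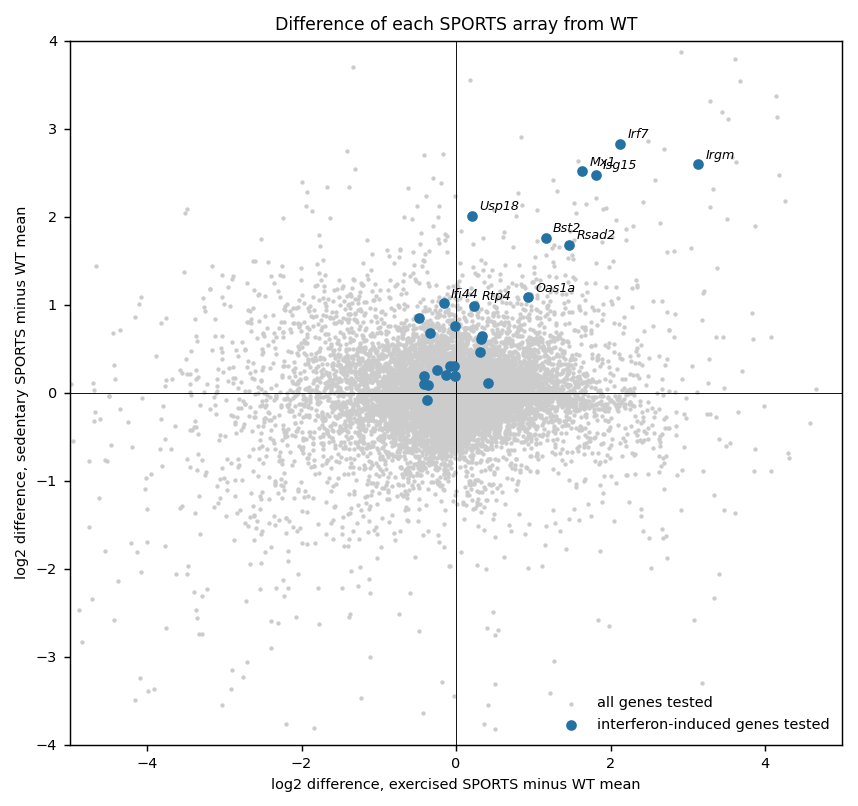
Log2 difference from the WT mean on the exercised (x axis) and sedentary (y axis) SPORTS array, for all 13326 genes tested (grey; 37 lie outside the plotted range) and the 26 tested members (blue). The axes share the WT arrays. Irf7, Irgm, Mx1, Isg15, Bst2 and Rsad2 lie at the upper right, and Usp18 high near the vertical axis.

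Other genes of the pathway came from lists chosen by role. Of 5 interferon ligand genes with a probe, Ifnb1, Ifng and Ifnk were not well above background on any array. Ifna5 had a log2 level of -0.17 in exercised and -5.83 in sedentary SPORTS muscle, against -2.80 and -3.70 on the WT arrays. It was well above background on the exercised and 1 WT array only. On the exercised array it rose, by 3.09 ± 0.47 (adjusted p = 0.0230, limma). On the sedentary array it was not well above background. A further Ifna5 probe was not well above background on any array. Ifna4 was well above background on the exercised array alone, at least 5.09-fold above WT. Interferon alpha genes are near-identical copies, so these probes may not separate them.

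Of 8 receptor and signalling genes tested, none was called on the sedentary array, and on the exercised array 1 rose and 3 fell, or 12.5% and 37.5%, where 27.3% of all genes rose and 26% fell. The type I receptor gene Ifnar1 fell on the exercised array by 0.72 (adjusted p = 0.00945, limma). Among 7 sensor and adaptor genes tested, none was called on the sedentary array, and 1 rose and 4 fell on the exercised one, or 14.3% and 57.1%, beside the same 27.3% and 26% of all genes. Of 3 negative regulators tested, 2 rose and 1 fell on the exercised array and none was called on the sedentary one. On the sedentary array 2.82% of all genes rose and 3.45% fell.

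A list of 57 other interferon-induced genes had 24 tested. On the sedentary array 8 rose, or 33.3% against 2.82% of all genes, and 1 fell, and 7, or 29.2% against 1.88%, were 2-fold or more above WT. On the exercised array 7 rose and 3 fell, or 29.2% and 12.5% against 27.3% and 26% of all genes, and 2, or 8.33%, were 2-fold or more above, near the 7.88% of all genes. The medians were 0.07 on the exercised and 0.37 on the sedentary array. Ifi27l2b, a relative of Ifi27, had a log2 level of 3.43 in exercised and 4.35 in sedentary SPORTS muscle, against 2.72 and 2.67 on the WT arrays, and rose on both (adjusted p = 0.00998 and 0.0322, limma).

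Lgals3bp, encoding a secreted glycoprotein that binds galectins, differed by 0.25 on the exercised and rose by 1.36 on the sedentary array (adjusted p = 0.0368 on the sedentary array, limma). Slfn2 rose by 1.39 on the sedentary array (adjusted p = 0.0489, limma). The chemokine gene Cxcl9, a target of interferon gamma, fell on both, by 1.47 on the exercised and 1.61 on the sedentary array, opposite to Cxcl10 on the sedentary array. Tor3a, a torsin family gene, rose on the exercised array only by the test (1.77, adjusted p = 0.0061, limma), at 0.14 on the sedentary one. The oligoadenylate synthetase gene Oas1k was the only gene of that list 2-fold above WT on both SPORTS arrays, at 1.05 on the exercised and 1.10 on the sedentary one above the WT mean, and was named after its values were seen. It is a paralogue of Oas1a, and their probes may share target.

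Among 11 genes of antigen presentation by class I molecules, the immunoproteasome genes Psmb8 and Psmb9 rose on the sedentary array, by 0.96 and 0.71 (adjusted p = 0.0391 and 0.0451, limma), and none fell. They are 18.2% of the list, against 2.82% of all genes. On the exercised array 2 rose and 1 fell, or 18.2% and 9.09% against 27.3% and 26%. Class II genes had a median of -1.20 on the exercised and 1.08 on the sedentary array, with 2 of 6, or 33.3%, called lower on the exercised one, against 26% of all genes.

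Macrophage and monocyte markers lay, by their median, below WT on the exercised array and above it on the sedentary one. Of 17 with a probe, 13 were tested, and Mpeg1 and Ccr2 were not well above background on any array. Their summed signal, in units of the 75th percentile, was 21.7 in exercised and 94.1 in sedentary SPORTS muscle, against 60.8 and 42.4 on the WT arrays. Their median difference was -1.35 on the exercised and 0.96 on the sedentary array, and 8, or 61.5%, fell on the exercised array, against 26% of all genes, while none was called on the sedentary one. C1qa, a complement gene of macrophages, had a log2 level of 1.09 in exercised and 3.47 in sedentary SPORTS muscle, against 2.71 and 2.32 on the WT arrays. Cx3cr1, also on the list, differed by 0.05 on the exercised and -0.20 on the sedentary array. The part of these cells in the members' differences was not tested on either array.

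Many lymphocyte and dendritic cell markers were not well above background. Of 13 T and natural killer cell markers, 9 were not well above background on any array, and the sum over the list was 0.572 in exercised and 0.744 in sedentary SPORTS muscle, against 0.788 and 0.589 on the WT arrays. Of 6 dendritic cell markers with a probe, Xcr1, Clec9a and Irf4 were not well above background on any array. The sums were 3.88 in exercised and 5.11 in sedentary SPORTS muscle, against 6.91 and 6.44 on the WT arrays. Most of each sum came from 1 gene, Tcf4. Its log2 level was 1.83 in exercised and 2.14 in sedentary SPORTS muscle, against 2.67 and 2.55 on the WT arrays. Endothelial markers had sums of 15.8 and 16.2 on the exercised and sedentary SPORTS arrays, against 13.5 and 14.1 on the WT arrays, with none of 8 called on the sedentary one. On the exercised array Cdh5 differed from WT by -2.09, Emcn by -0.81, Tie1 by -0.36 and Cldn5 by 1.52. The median difference of the 8 was 0.03 on the exercised and 0.17 on the sedentary array. All 6 fibroblast markers tested lay below WT on the exercised array. Their median difference was -1.71 there and 0.05 on the sedentary array, where Col1a1 differed by -1.41 and Col1a2 by -0.68. Of 3 neutrophil markers tested, Lcn2 and S100a9 lay above WT on both SPORTS arrays and Cxcr2 lay below WT on both. The other 6 with a probe were not well above background on any array. Lcn2 had a log2 level of -2.19 in exercised and -2.0012 in sedentary SPORTS muscle. On the WT arrays, where it was not well above background, the level was -5.80 and -5.79. Its bound was at least 2.70-fold higher on the exercised and at least 3.08-fold higher on the sedentary array. S100a9, not well above background on the WT arrays, was at least 2.61-fold higher on the exercised and at least 1.35-fold higher on the sedentary array. Lcn2 and S100a9 passed the filter for testing only through the SPORTS arrays, where they were high. Cxcr2 was well above background on the WT arrays only. Its log2 level was -4.53 in exercised and -6.06 in sedentary SPORTS muscle, against -2.56 and -1.45 on the WT arrays. Lcn2 and S100a9 thus lay on the same side of WT as the 6 members raised on both SPORTS arrays, and Cxcr2 on the other. The part of neutrophils in those members' differences was not tested.

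**Figure D5:**
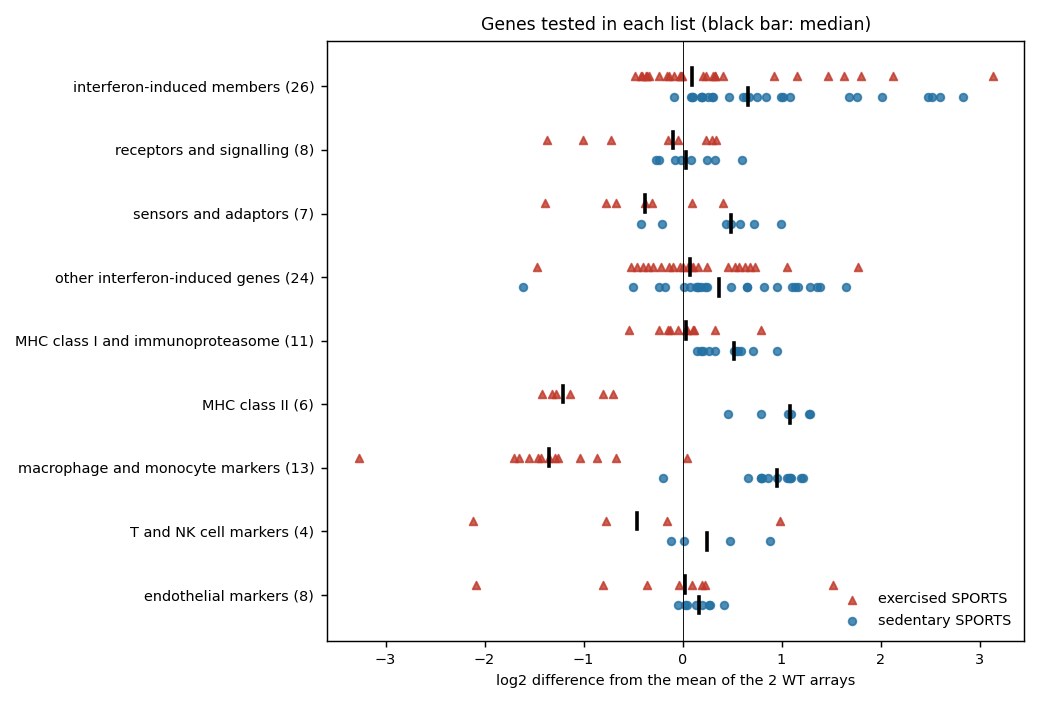
Log2 difference from the WT mean on the exercised (triangles) and sedentary (circles) SPORTS array for the tested genes of 9 lists, with the number tested in brackets and a black bar at each median. The medians of class II genes and of macrophage markers lie below WT on the exercised and above it on the sedentary array, at -1.20 and 1.08 and of -1.35 and 0.96.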

How the data were processed

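Skeletal muscle RNA was measured on 4 one-colour Agilent arrays. The deposited intensity values are the processed signal, background-subtracted and detrended within each array by Agilent Feature Extraction 10.7.1.1, per the file headers, with no scaling between arrays. The flags for background and outliers are deposited values of another kind (0 or 1), per the file headers. The authors' table of log2 values, centred on each probe's median, followed the same differences between arrays and served as an alternative.

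Control spots and outlier-flagged spots were left out (352 of 30367 probes), spots of a probe averaged, and values taken as log2 minus the 75th percentile of the array. Accessions were matched to RefSeq symbols (GRCr8), which named 59.4% of 30015 probes, and the probe with the highest mean was used per gene. Saturated spots were 0 among the probes used. All 4 arrays came from 1 slide. Tests used limma 3.58.1 in R 4.3.3 over 13326 genes with Benjamini-Hochberg adjustment, called below 0.05, and were tested on simulated data. SPORTS against WT had 2 residual degrees of freedom and the 3-group fit 1. WT arrays differed by an SD of 0.159 over 1390 probes with at least 3 spots, against a median spot error of 0.0275, so they are not 1 scan deposited again. They were counted as 2 samples because the labels list them as such, which does not show separate animals.

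The members, lists and rules were chosen with earlier results of these data known. Every member is named, with each array's value where it was 2-fold from both WT arrays. From other lists some genes are given by value, and these are not always the ones with the largest difference. Left out, for example, were Adgre1 among macrophage markers, at -3.27 on the exercised array, and the receptor gene Il10rb, at -1.01 there. Adgre1 was not well above background on that array. The number of arrays limits precision. Values of 1 gene are not reported here.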

Additional observations from a re-analysis of the deposited data

Results flagged for a closer look

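For 9 tested members the exercised SPORTS array lay below both WT arrays while the sedentary SPORTS array lay above both, and each is given here as the log2 difference from the WT mean. Of all genes tested, 18.2% lay on these sides. The difference between the SPORTS arrays was not tested, as each has 1 array. Isg20 was at -0.48 on the exercised and 0.84 on the sedentary array, Ifi44 at -0.16 and 1.01, and Gbp2 at -0.34 and 0.67. Eif2ak2 was at -0.42 on the exercised and 0.19 on the sedentary array, Ifit3 at -0.41 and 0.10, and Ifit2 at -0.36 and 0.085. Stat2 was at -0.24 on the exercised and 0.25 on the sedentary array, Mx2 at -0.13 and 0.20, and Irf9 at -0.081 and 0.30. With scaling by the median 5 of the 9 still lay on opposite sides, with quantile normalization 7 and with normexp 6.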

How the results depend on the processing

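In SPORTS against WT, the members called higher numbered 0 in 2 arrays against 2 and 12 in the 3-group fit averaged over the SPORTS arrays, where 18.3% of all genes were called higher and 4868 genes were called in either direction. Leaving out each array in turn gave 0 to 10 called higher and 0 to 5 called lower, with 836 of all genes called without the exercised array and 7097 without the sedentary one. The members called higher on the sedentary array numbered 10, against 0 with no filter on dim probes and 16 with a variance trend, and those at least 2-fold above WT numbered 7, against 14 at 1.5-fold. The members called lower on the exercised array numbered 5, against 1 with normexp, 2 with quantile normalization, and 0 with scaling by the median or with no filter. Those at least 2-fold lower on the exercised than on the sedentary SPORTS array numbered 4, against 2 with normexp, 2 with scaling by the median and 11 at 1.5-fold. The median of the members on the exercised array, 0.10, was -0.0091 when each gene had to be well above background on every array, a setting without Irgm. For the other changes the cause was not tested. Over these counts and settings, 146 values stayed within 1.5 times of those reported and 14 did not. Over all genes, the number called on the sedentary array was 836, against 0 with no filter, 2114 with normexp, 2170 with the filter on every array, 1415 with a floor on dim values and 2816 with a variance trend. Without 1 of the WT arrays the 3-group fit has no residual degrees of freedom, and no test was made. Of the 10 members called on the sedentary array, Gbp2 and Rsad2 also lost their calls with the mean over all probes of a gene. Both have 1 probe, so their own values were the same in that setting. Signal near background limits Cxcl10, Dhx58, Parp9 and the WT values of Irgm. No paired analysis was possible because the groups share fewer than 2 replicate numbers.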
